A study of Mus musculus with 15 samples.

Results

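The T-box genes encode transcription factors that share a DNA-binding domain, the T-box, first described in the product of T (brachyury). The positions of 10 of them, T, Eomes, Tbx1, Tbx2, Tbx3, Tbx4, Tbx5, Tbx15, Tbx18 and Tbx20, were stated in Mb of mouse build mm9, and every interval of the 3 deposited ChIP-seq lists whose nearest edge lay within 30 kb of such a position was taken. This gave 9 of 2466 intervals: 3 of 902 for EZH2, 2 of 438 for FLAG and 4 of 1126 for H3K27me3. They lay at 4 of the 10 positions, those of T, Tbx1, Tbx2 and Tbx5. The choice used no overlap and no limit on width, but distance ran to the nearest edge, so a wider interval meets the limit more easily. With distance measured from the midpoint, 3 H3K27me3 intervals were taken in place of 4.

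All 3 libraries came from the same cell condition, mouse embryonic fibroblasts with a floxed EED gene that stably express wild-type EZHIP from a lentivirus, for which no drug treatment and no Cre step is labelled. They differ in the antibody: EZH2, the FLAG epitope, or H3K27me3. The name of the deposited H3K27me3 list calls the mark residual. H3K27me3 below therefore means the mark listed in these EZHIP-expressing cells, not its extent in cells without EZHIP. The FLAG signal stands here for epitope-tagged EZHIP, since the design text lists EZHIP beside EZH2 and H3K27me3 as what was profiled. The other 12 of the 15 libraries (DMSO, tazemetostat, EED-null, which is a single clone, and the EZHIP variant M406E) were not analysed here, nor were cells without EZHIP, so nothing below measures an effect of EZHIP, of EED or of a drug. Each antibody has 1 library and each list holds positions only. There are therefore no replicates, no test between conditions, and no peak height, and the depth is unknown. No expression was measured, so the fibroblast label was not checked against marker genes.

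Polycomb repressive complex 2 (PRC2) methylates lysine 27 of histone H3 through its catalytic subunit EZH2, and the trimethylated form, H3K27me3, marks genes kept silent outside the lineages that use them. EED, another subunit, binds H3K27me3 and stimulates the enzyme, which lets the mark spread from the sites where PRC2 is recruited. EZHIP is a protein inhibitor of PRC2. Genes for developmental transcription factors, among them T-box genes, are classical PRC2 targets, and their promoters are often rich in CpG dinucleotides. The family acts in gastrulation (T, Eomes), in the pharynx and heart (Tbx1, Tbx20), in limb, heart and lung (Tbx2, Tbx3, Tbx4, Tbx5) and in the skeleton, somites and epicardium (Tbx15, Tbx18).

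Promoter sequences are shown for the 2 genes at whose positions all 3 signals were listed, T and Tbx1, and for Eomes, as a gene of the gastrulation group with no interval nearby. They are RefSeq sequences of build GRCm38.p6, from 250 bases before to 50 bases after an annotated start, written 5′ to 3′ on the gene's strand with each CpG in capitals. The intervals are in mm9 and coordinates were not converted, so whether these stretches lie inside the intervals cannot be told from them. For T (gene ID 20997) the stretch is chr17:8434173-8434472 on the plus strand. Tbx1 (gene ID 21380) has a pair of entries on the minus strand, chr16:18588850-18589149 and chr16:18590622-18590921. That of Eomes (gene ID 13813) is chr9:118477939-118478238 on the plus strand.
T: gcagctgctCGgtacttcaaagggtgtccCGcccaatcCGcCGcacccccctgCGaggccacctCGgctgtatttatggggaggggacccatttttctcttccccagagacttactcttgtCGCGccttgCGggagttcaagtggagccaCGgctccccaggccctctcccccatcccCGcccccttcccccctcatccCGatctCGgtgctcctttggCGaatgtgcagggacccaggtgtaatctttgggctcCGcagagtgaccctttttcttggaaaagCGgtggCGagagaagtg
Tbx1, start site 1: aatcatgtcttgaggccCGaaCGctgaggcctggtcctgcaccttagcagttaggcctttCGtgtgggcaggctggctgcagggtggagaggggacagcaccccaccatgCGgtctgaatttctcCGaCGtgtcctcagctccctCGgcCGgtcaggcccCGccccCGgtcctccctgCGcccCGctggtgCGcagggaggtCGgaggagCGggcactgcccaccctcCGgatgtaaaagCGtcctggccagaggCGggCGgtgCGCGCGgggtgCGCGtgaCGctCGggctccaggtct
Tbx1, start site 2: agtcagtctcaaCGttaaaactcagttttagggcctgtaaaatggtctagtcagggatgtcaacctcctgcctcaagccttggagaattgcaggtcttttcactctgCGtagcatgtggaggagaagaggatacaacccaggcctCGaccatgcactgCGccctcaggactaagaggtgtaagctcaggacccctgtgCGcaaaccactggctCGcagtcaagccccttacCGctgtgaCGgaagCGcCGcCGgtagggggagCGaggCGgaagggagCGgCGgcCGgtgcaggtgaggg
Eomes: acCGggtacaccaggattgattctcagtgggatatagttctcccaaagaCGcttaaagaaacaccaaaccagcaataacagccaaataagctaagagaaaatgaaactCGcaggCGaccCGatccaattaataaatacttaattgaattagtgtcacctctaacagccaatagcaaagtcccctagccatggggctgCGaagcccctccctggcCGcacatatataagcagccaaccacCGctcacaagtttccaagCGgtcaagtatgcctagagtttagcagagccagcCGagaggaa

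The table matched 6 of the 10 genes, with 7 promoters, and held no entry for Tbx2, Tbx3, Tbx5 and Tbx15. The promoter of T held 17 CpGs, more than 68.6% of the 32851 mouse promoters of the same length in the table, whose median was 7 (interquartile range 3 to 20). Start sites 1 and 2 of Tbx1 held 26 and 16 CpGs, Tbx20 held 26 and Tbx18 held 15. Eomes held 10 and Tbx4 held 8. By CpG count all 7 promoters thus lay above the median of the table, those with listed intervals (T and Tbx1) and those without. The counts of T and of Tbx1 start site 2 lay within 2 CpGs of that of Tbx18, which had no interval within 30 kb. By the ratio of CpGs observed to those expected from C and G content, Tbx4 lay below the median (0.314 against 0.384) and the others above it.

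The letters AGGTGT, the core of the sequence that T-box proteins bind, were searched on both strands. They occurred in 2 of the 7 promoters, once in that of T (in cccaggtgtaatc) and once in that of Tbx1 start site 2 (in ctaagaggtgtaagc), against 13.7% of all promoters in the table. Tbx1 has 2 entries among the 7, and with so few promoters no difference from that share can be read from the count. A match of letters does not show binding, and its absence from a 300-base window says nothing of the rest of the gene.

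**Figure D1:**
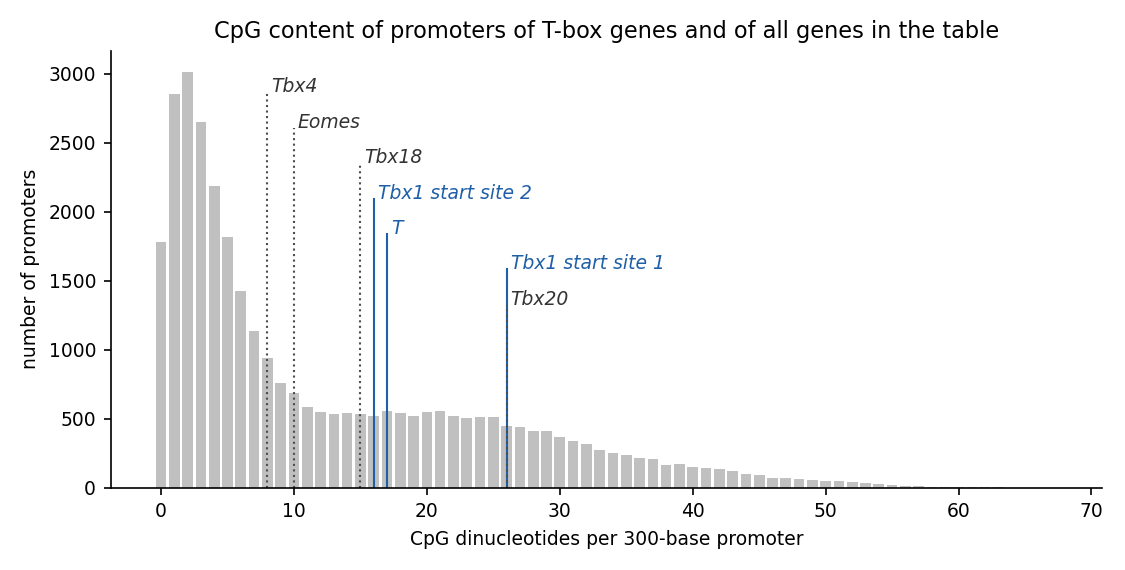
Number of CpG dinucleotides in 300-base promoters (x axis) against the number of promoters with that count (grey bars, y axis) for the 32851 entries of the RefSeq table. Lines mark T-box promoters, solid blue for genes with listed intervals within 30 kb (T and Tbx1) and dotted grey for the others; both kinds lie between 8 and 26 CpGs, and Tbx20 shares the value of Tbx1 start site 1.

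At the stated position of T, the gene for brachyury, which drives formation of mesoderm and notochord, all 3 signals were listed. The EZH2 interval was chr17:8621401-8630799, 9399 bp wide and spanning the stated position of 8.63 Mb. FLAG was listed at chr17:8623401-8629199, 5799 bp wide and 801 bp from that position. Positions are given only to 10 kb, or 5 kb for Tbx5. Here and below, distances of a few kb, and which intervals span a position, therefore carry no meaning. The H3K27me3 interval, chr17:8621201-8631799, was 10599 bp wide and spanned the stated position, as the EZH2 interval did. The intervals were thus nested, with FLAG inside EZH2 and EZH2 inside H3K27me3.

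H3K27me3 at T reached 200 bp beyond EZH2 on the lower side and 1000 bp beyond it on the upper side, so it was 1.13 times as wide. Over the 764 cases in which 1 EZH2 and 1 H3K27me3 interval overlapped only each other, called pairs here, the median ratio was 0.900 (interquartile range 0.750 to 1.00), and 69 pairs had a higher ratio than T. A reach of at least 1000 bp was seen at 59 of the 1528 edges of these pairs, or 3.86%, and the upper edge at T is among them. FLAG lay 2000 bp inside the lower and 1600 bp inside the upper EZH2 edge and covered 61.7% of the EZH2 interval. The median over the 399 pairs of EZH2 and FLAG was 52.0% (37.0 to 65.1%), with 130 pairs above T. The methylated interval at T was therefore longer than its EZH2 interval, the less common order in these lists, while its FLAG share lay within the interquartile range.

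Eomes, the second gene of the gastrulation group, which acts in trophoblast and definitive endoderm, had no interval of any list within 30 kb of its position at chromosome 9, 118.39 Mb. The closest was a 599 bp H3K27me3 interval 194 kb away, chr9:118583801-118584399. The nearest EZH2 interval, of 2199 bp, lay 607 kb away, and the nearest FLAG interval lay 4.09 Mb away. In these lists the 2 gastrulation genes therefore differ, T carrying all 3 signals and Eomes none. An unlisted position had no interval called there, which does not show that PRC2 or the mark is absent.

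Tbx1, which patterns the pharyngeal arches and outflow tract and is a main gene of the 22q11 deletion syndrome in people, also had all 3 signals. EZH2 was listed at chr16:18579801-18592399, 12599 bp wide, and the H3K27me3 interval had exactly the same start and end. FLAG was listed at chr16:18580401-18590999, 10599 bp wide and 401 bp from the stated position of 18.58 Mb. In the RefSeq gene order Tbx1 lies between Gnb1l and Gp1bb. In each of the 3 lists the Tbx1 interval was the widest of the T-box intervals.

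Identical edges on both sides, as at Tbx1, occurred in 20 of the 764 EZH2 and H3K27me3 pairs, or 2.62%. Edges fall on a grid of 200 bp, so equal edges agree only to that step. FLAG at Tbx1 lay 600 bp inside the lower and 1400 bp inside the upper EZH2 edge and covered 84.1% of the EZH2 interval, against the median of 52.0% over the 399 pairs, of which 7 had a higher share. At an upper inset of 1400 bp Tbx1 is at the edge of the interquartile range of FLAG insets (1400 to 2400 bp), and its lower inset of 600 bp is shorter than that range. An inset of a given length takes a smaller share of a wide interval, and FLAG shares were not compared at like width. Tbx1 thus combined a wide EZH2 interval with FLAG over most of its length and with methylation of the same extent, whereas T had FLAG over a smaller share and methylation that reached further.

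Tbx20, which is required for heart chamber development, had nothing within 30 kb of its position at chromosome 9, 24.52 Mb. A pair of wide intervals lay further off, EZH2 at chr9:24573601-24586599 (12999 bp, 53.6 kb away) and H3K27me3 at chr9:24574201-24586399 (12199 bp, 54.2 kb away). The next EZH2 interval was 2.71 Mb from this one, a wider gap than 85.6% of EZH2 intervals had. The GRCm38.p6 promoter of Tbx20 is on the minus strand, so the gene starts at its end of higher coordinates. The pair lies on that side of the stated position. The stated position is a single point whose place in the gene is not given, so whether this pair belongs to Tbx20 cannot be told without mm9 annotation. The values are given for comparison, since it is as wide as the Tbx1 interval and has no FLAG.

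**Figure D2:**
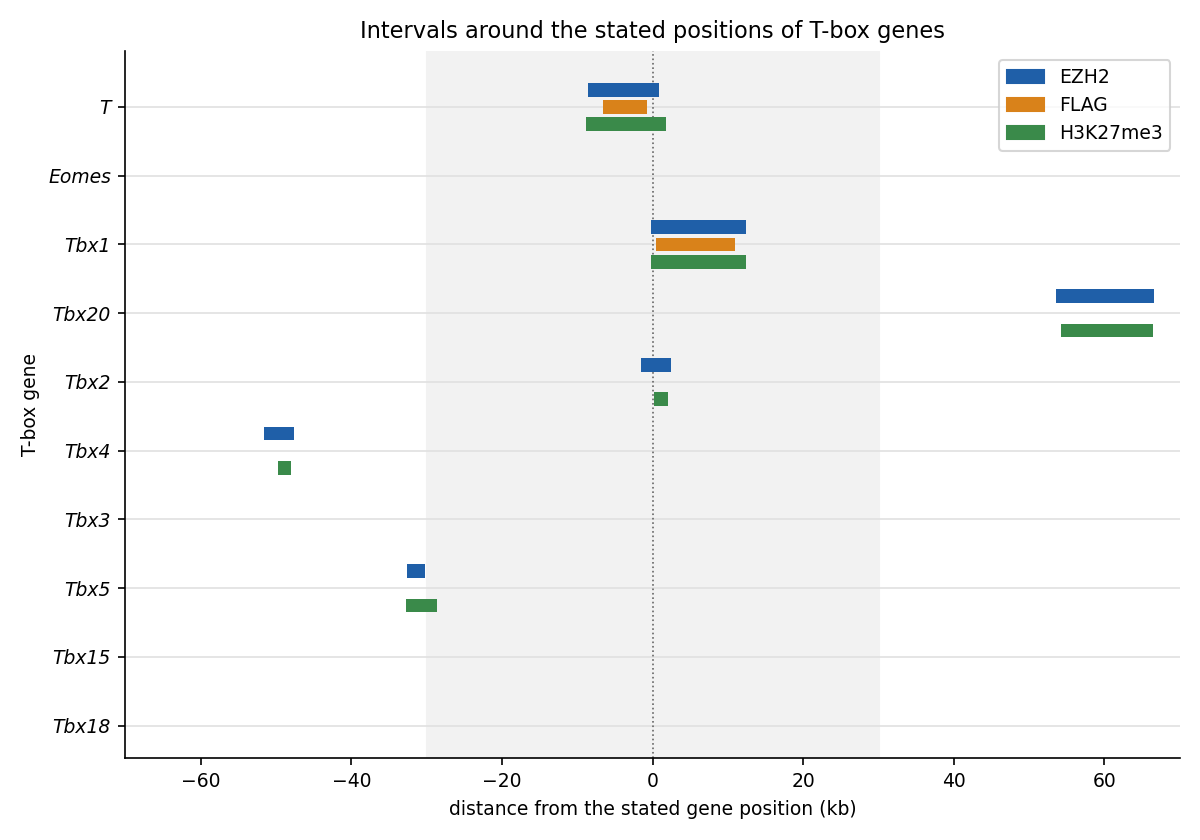
Intervals of EZH2 (blue), FLAG (orange) and H3K27me3 (green) around the stated mm9 position of each T-box gene, in kb from that position (x axis), with 1 row per gene. The grey band marks 30 kb on either side; T and Tbx1 have 3 signals in it, Tbx2 has EZH2 and H3K27me3, Tbx5 has an H3K27me3 interval at its margin, and the bars in the Tbx4 row are the Tbx2 intervals seen from Tbx4.

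Tbx2 and Tbx4 are neighbours in the RefSeq gene order, and their stated positions lie 50 kb apart on chromosome 11. Tbx2, a repressor that keeps the chamber programme out of the atrioventricular canal of the heart, had EZH2 at chr11:85648401-85652399, 3999 bp wide, across its position of 85.65 Mb. H3K27me3 was listed at chr11:85650201-85651999, 1799 bp wide and inside the EZH2 interval. No FLAG interval lay nearer than 1.31 Mb. This was the only one of the 4 positions with intervals where H3K27me3 was narrower than the EZH2 interval it overlapped.

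The Tbx2 H3K27me3 interval was 0.45 times as wide as its EZH2 interval, and 45 of the 764 pairs had a lower ratio. Its lower edge lay 1800 bp inside the EZH2 edge and its upper edge 400 bp inside, the latter equal to the median over the 1528 edges (-400 bp as a reach beyond EZH2). Of the 1528 edges, lower and upper pooled, 35 were inset by as much as this lower edge or more. Tbx4, a hindlimb and lung gene, had no interval of its own within 30 kb of 85.70 Mb, and the intervals closest to it were those at Tbx2, at 47.6 kb for EZH2 and 48.0 kb for H3K27me3. The signals listed in this stretch thus sat at the position of Tbx2 and not at that of Tbx4.

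Tbx3 and Tbx5, the corresponding neighbours on chromosome 5, have stated positions 165 kb apart. Tbx5, a forelimb and heart gene, had an H3K27me3 interval at chr5:120252201-120256399, 4199 bp wide and 28.6 kb below its position of 120.285 Mb. Inside it lay an EZH2 interval, chr5:120252401-120254799, 2399 bp wide, whose nearest edge was 30.2 kb away and so just past the limit of the choice. From Tbx3, a repressor active in limb, mammary gland and cardiac conduction tissue, the same pair was 132 kb away. It thus lies between the positions of the neighbours, at neither of them, and which gene it belongs to was not determined.

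At this pair H3K27me3 was the wider signal, at 1.75 times the EZH2 width, with 19 of 764 pairs above it. Its EZH2 interval of 2399 bp is close to the list minimum of 2199 bp, with 4.43% of EZH2 intervals narrower. The ratio was ranked among pairs of all widths and was not compared at like width. The H3K27me3 interval reached 200 bp beyond EZH2 below and 1600 bp beyond it above, and 39 of 1528 edges reached at least as far as the latter. No FLAG interval lay within 588 kb of Tbx5 or 753 kb of Tbx3. On chromosome 5, 70 of the 143 H3K27me3 intervals overlapped EZH2 (49.0%, exact Clopper-Pearson 95% interval 40.5 to 57.4%), against 737 of 983 on the other chromosomes pooled (95% interval 72.1 to 77.7%). The interval near Tbx5 is among the 70. These 95% intervals cover counting error only and treat neighbouring intervals as independent. Chromosome 5 was set apart as the holder of the Tbx3 and Tbx5 positions, and the spread among single chromosomes is not given. Whether chromosome 5 differs from the other chromosomes was therefore not tested.

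Tbx15, a gene for skeletal growth and coat patterning, and Tbx18, a gene of the somites and epicardium, had no interval of any list within 30 kb. Around Tbx15, at chromosome 3, 99.04 Mb, the nearest EZH2 and H3K27me3 intervals both began 4.34 Mb away and the nearest FLAG interval lay 7.86 Mb away. Of the 10 positions this was the only one with no interval of any list within 1 Mb. Around Tbx18, at chromosome 9, 87.60 Mb, narrow intervals of EZH2 (2199 bp) and H3K27me3 (1399 bp) lay 559 and 560 kb away, and FLAG lay 12.2 Mb away. Eomes, Tbx15 and Tbx18 were the 3 positions with no interval of any list within 150 kb.

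Across the family, intervals were listed near 4 of the 10 positions, and those at T and Tbx1 were wider than the median of each list. The share of all genes with an interval within 30 kb was not measured, since mm9 annotation was not used here. Within 30 kb, all 3 signals were listed at 2 of the 10 positions, EZH2 with H3K27me3 but without FLAG at 1, H3K27me3 alone at 1 and nothing at 6. Tbx20, whose nearest EZH2 interval lay 53.6 kb away, is among those 6. Over the whole lists, 401 of 1175 merged regions held all 3 signals, or 34.1%, but that share counts only regions with an interval, so the 2 shares have different denominators. Among the 4 merged regions with T-box intervals, 2 held all 3 signals, and the other 2, at Tbx2 and near Tbx5, held EZH2 and H3K27me3. With so few regions, no difference between T-box genes and the rest of the lists can be read from these counts.

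The T-box EZH2 intervals measured 3999 bp at Tbx2, 9399 bp at T and 12599 bp at Tbx1, with a median of 9399 bp against 5199 bp for all 902. Of all EZH2 intervals, 31.4% were narrower than that at Tbx2, 80.6% narrower than that at T and 88.7% narrower than that at Tbx1. FLAG measured 5799 bp at T and 10599 bp at Tbx1, against a median of 3999 bp for all 438, and 71.5% and 90.4% of FLAG intervals were narrower. H3K27me3 ranged from 1799 bp at Tbx2 through 4199 bp near Tbx5 and 10599 bp at T to 12599 bp at Tbx1, with a median of 7399 bp against 4599 bp for all 1126. The order of the genes by width, Tbx2, T, Tbx1, was the same for EZH2 and H3K27me3.

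**Figure D3:**
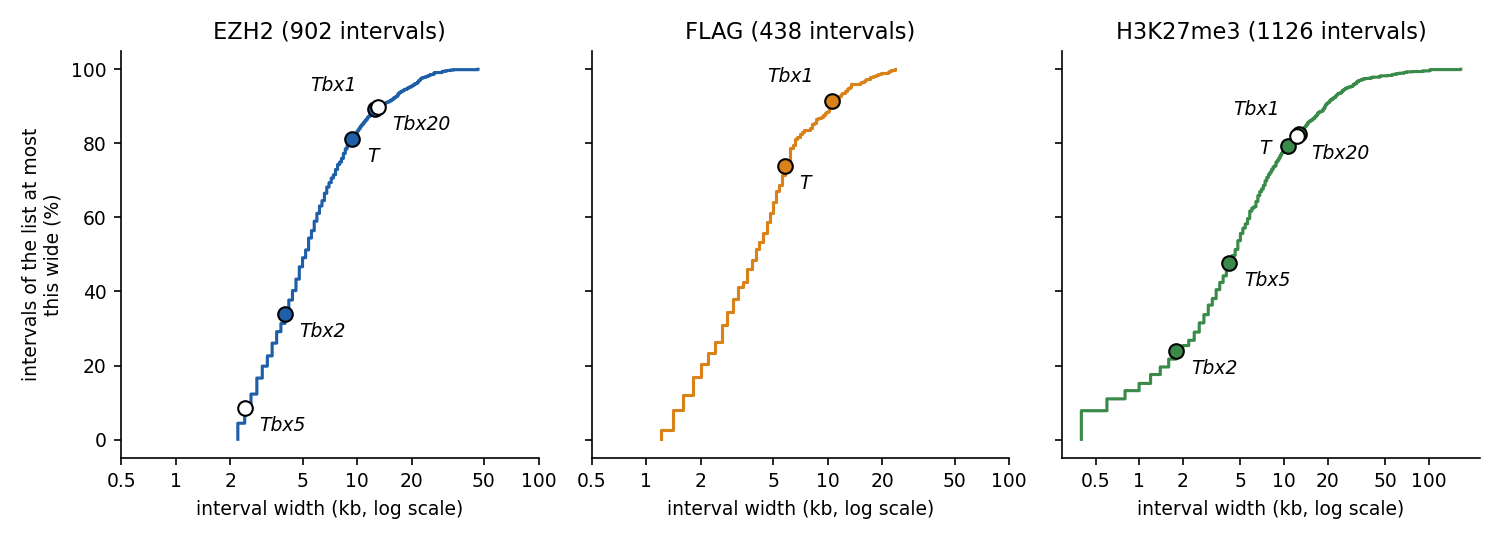
Cumulative distribution of interval width (x axis, kb, log scale) in each list (y axis, percent of intervals at most this wide). Filled points are T-box intervals within 30 kb of a stated position and open points the nearby intervals outside that distance (EZH2 near Tbx5, EZH2 and H3K27me3 near Tbx20); T and Tbx1 lie in the upper part of all 3 lists and Tbx2 in the lower part of both lists that hold it.

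In bases, the T-box intervals made up 25997 bp or 0.418% of the EZH2 coverage, 16398 bp or 0.740% of the FLAG coverage and 29196 bp or 0.315% of the H3K27me3 coverage. The T-box EZH2 intervals each stood alone, the next EZH2 interval being 360 kb away at T, 661 kb at Tbx1 and 875 kb at Tbx2, beside a median gap of 470 kb over the list. None was thus part of a run of closely spaced intervals. The FLAG interval at T was 4.07 Mb from the next, further than 82.0% of FLAG intervals were, and that at Tbx1 663 kb, beside a median of 771 kb.

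The T-box intervals at T and Tbx1 overlapped in all 3 signals, and those at Tbx2 and near Tbx5 in EZH2 and H3K27me3. All 3 EZH2 intervals overlapped H3K27me3, as did 95.2% of the whole EZH2 list, and all 4 H3K27me3 intervals overlapped EZH2, beside 71.7% of the H3K27me3 list. The exact Clopper-Pearson 95% interval of 4 of 4, 39.8 to 100%, holds that share. Both FLAG intervals overlapped EZH2 (96.6% of the list) and H3K27me3 (98.6%). FLAG overlapped 2 of the 3 EZH2 intervals, those at T and Tbx1, beside 45.5% of all EZH2 intervals, and 2 of the 4 H3K27me3 intervals, beside 36.1%. The exact interval of 2 of 3 runs from 9.43 to 99.2%, so the T-box share of FLAG cannot be told apart from that of the list, and such intervals cover counting error only.

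FLAG was listed more often at wide EZH2 intervals than at narrow ones, so each T-box interval was set beside the other EZH2 intervals within 1 kb of its own width. Of 292 others like Tbx2, 39 overlapped FLAG, or 13.4% (9.67 to 17.8%), and Tbx2 did not. Among 77 others like T, 67 did, or 87.0% (77.4 to 93.6%), and among 28 others like Tbx1, 23 did, or 82.1% (63.1 to 93.9%). At T, Tbx1 and Tbx2 the state of FLAG was thus that of most EZH2 intervals of like width.

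The pair near Tbx20 went the other way, since it had no FLAG while 20 of 26 others of like width had it (76.9%, 56.4 to 91.0%) and 6 did not. The EZH2 interval near Tbx5 had a width at which 0 of 234 others overlapped FLAG (exact 95% interval 0 to 1.56%, and 1.28% by the limit of 3 counts of the total). Both of these lie outside the 30 kb distance. FLAG was therefore absent from the list near Tbx2 and Tbx5 at widths where it was rarely listed, and near Tbx20 at a width where it usually was.

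**Figure D4:**
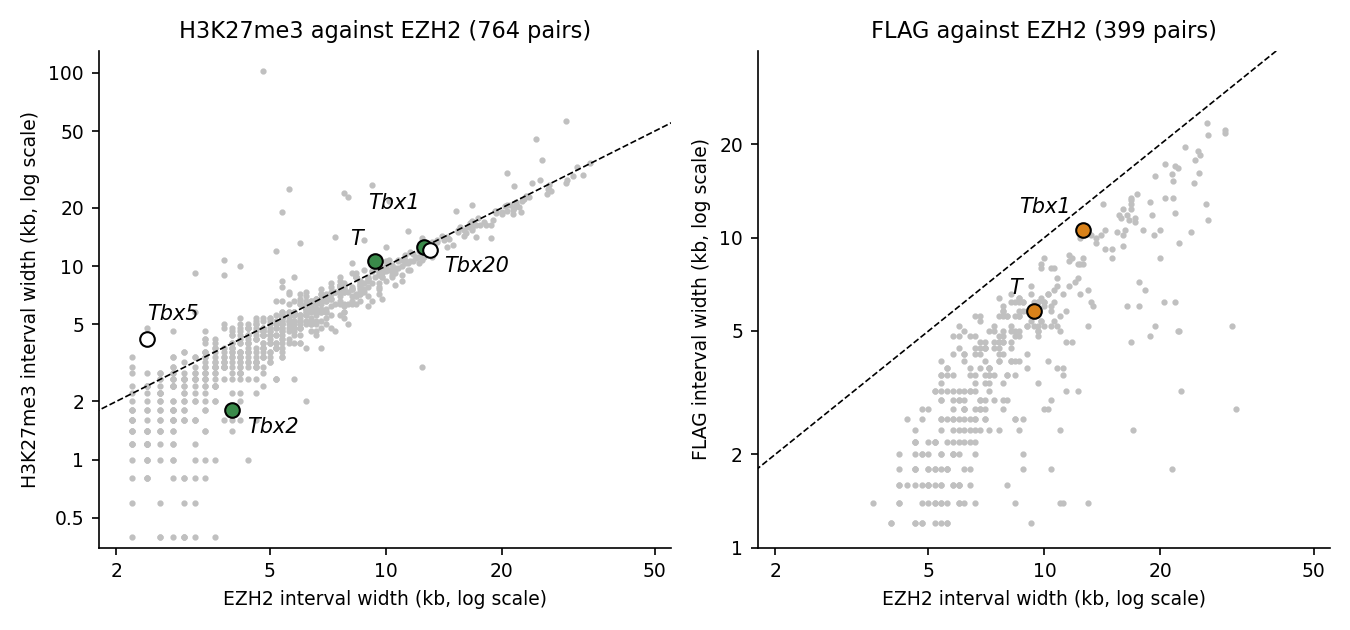
Width of the H3K27me3 interval (left, 764 pairs) and of the FLAG interval (right, 399 pairs) against the width of the EZH2 interval it overlaps, all in kb on log axes. Each grey point is a pair of intervals that overlap only each other, the dashed line is equal width, filled points are pairs at T, Tbx1 and Tbx2 and open points pairs whose EZH2 interval lies beyond 30 kb; Tbx1 sits on the line at left and close below it at right, T above it at left, and Tbx2 well below it at left.

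The 4 pairs of EZH2 and H3K27me3 near T-box positions, including the one near Tbx5, differed widely in relative width. The ratio of H3K27me3 to EZH2 was 0.45 at Tbx2, 1.00 at Tbx1, 1.13 at T and 1.75 near Tbx5. In the whole list 159 of 764 pairs, or 20.8%, had the wider interval in H3K27me3, as T and the pair near Tbx5 did. The extents follow the thresholds of the authors' peak calls, which no source used here gives. These 4 pairs thus shared no single relation between the listed extent of EZH2 and that of the mark. The gene of the pair near Tbx5 was not determined. A grid step of 200 bp shifts the ratio most where intervals are narrow, as at Tbx2 and near Tbx5.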

How the data were processed

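ChIP-seq intervals of 3 libraries were used, 1 per antibody. Fixed chromatin was cut to mono-nucleosomes with micrococcal nuclease, per the labels' protocols. The submitters' processing notes name Bowtie 1.0.0, deepTools and build mm9. No source used here names the peak caller, its thresholds or a control. The lists deposited by the authors give chromosome, start and end in bp on a grid of 200 bp and no other value, so depth is unknown. Groups came from the sample titles. The gene positions are given to 10 kb (Tbx5 to 5 kb), so distances of a few kb carry no meaning.

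Starts were counted from 1, and intervals overlapped where they shared at least 1 bp. No test between sets or conditions was made. Shares carry exact 95% Clopper-Pearson intervals (Python 3.11.15, numpy 2.4.6, scipy 1.17.1). The steps were tested on simulated intervals. The members, lists and measures were chosen with earlier results of these data known, and the comparison by like width, the gaps, the intervals near Tbx20 and the sequences shown after values were seen. All 10 genes are named, by the rule for named genes. RefSeq gene order (GRCm38.p6) gave names only. Overlap with exons, introns and promoters in mm9, and Tbr1, Tbx6, Tbx10, Tbx19, Tbx21, Tbx22 and Mga, were not analysed here. Alternatives changed the distance and how it is measured, narrow intervals, joining, chromosome 5 and the required overlap.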

Additional observations from a re-analysis of the deposited data

How the results depend on the processing

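The 10 results were recomputed under 9 alternative settings, 85 values in all, and all 85 stayed within 1.5 times the reported value or, for shares, within its exact 95% interval. With so few intervals these intervals are wide, so this is a weak check. The 2 positions with all 3 signals stayed 2 under distances of 10, 20, 50 and 100 kb. The total of 9 intervals became 8 at 10 or 20 kb, where the H3K27me3 interval near Tbx5 dropped out, 10 at 50 kb with its EZH2 interval, and 12 at 100 kb with the pair near Tbx20. FLAG was then present at 2 of 4 and 2 of 5 EZH2 intervals (50% and 40%). Leaving out intervals up to the lower quartile of width removed the H3K27me3 interval at Tbx2, so 2 of 3 EZH2 intervals kept H3K27me3 (66.7%). It also removed the EZH2 interval near Tbx5, so EZH2 was present at 2 of 3 H3K27me3 intervals (66.7%) in place of 4 of 4. The median H3K27me3 width was 7399 bp and became 10599 bp wherever the interval near Tbx5 or Tbx2 was left out, and at 100 kb. No paired analysis was possible because each antibody has 1 library and no fit between groups was made. Read depth and peak height were not analysed here.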
